A study of Mus musculus with 7 samples.

Results

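Mucin-type O-glycan enzymes start and shape the sugar chains that are linked through N-acetylgalactosamine (GalNAc) to serine and threonine. The 10 genes described here, of 32285 in the files, were taken by symbol: the GalNAc transferases Galnt1, Galnt2, Galnt3, Galnt7, Galnt10, Galnt11 and Galnt12, the core 1 galactosyltransferase C1galt1, its chaperone C1galt1c1, and the core 2 branching enzyme Gcnt1. As background, the GalNAc transferases act in the Golgi on different sets of acceptor peptides, and some of them prefer peptides that already carry a GalNAc. C1galt1 then adds galactose to make core 1, which needs the endoplasmic reticulum chaperone encoded by C1galt1c1 (Cosmc), and Gcnt1 adds the branch that makes core 2. Blood cell and platelet proteins such as CD43, PSGL-1 and glycoprotein Ib carry such chains, and core 1 chains are known to be needed for normal platelet numbers in mice.

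The libraries were single-cell RNA libraries of LSK cells, the lineage-negative, Sca-1-positive, cKit-positive fraction of mouse bone marrow that holds stem cells and early progenitors. By its title, the study is about glycosylation, Wnt and Muc13 in the choice of stem cells to become megakaryocytes. In all, 3 libraries were labelled B4galt1 KO, with the genotype given as 129S1/C57Bl/6, B4-/-, and 4 were labelled WT, with the genotype 129S1/C57Bl/6. B4galt1 encodes a galactosyltransferase that acts on GlcNAc ends, including those of core 2 branches. No treatment is given, and the age and sex of the mice, whether animals were pooled and how the allele was made are not given in the sources used here. Since nothing says that the libraries came from separate mice, p-values describe these libraries only. In comparisons of labels they measure the spread between libraries. In comparisons of states they measure how much state differences vary between libraries, pooled over all states in the fit.

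After filtering, 24430 cells remained, 1172 to 8862 per library, and the median cell of a library held 8046 to 11084 unique molecular identifiers (UMIs, one per captured transcript). The barcodes fell into 2 lists of sequences. KO replicate 3 and WT replicate 4 used one list (list B), with 480 opening sequences of 6 bases, and the other 5 libraries used the other (list A). List B libraries stood apart, with 31.7% and 31.8% of UMIs from ribosomal protein genes against 14.8% to 22.3% in list A, and they shared 88 barcodes, against at most 7 between any other 2 libraries. The list entered each comparison of labels as a covariate, and each library entered the comparisons of states as a block. B4galt1 itself had counts-per-million values (CPM) of 53.2, 53.1 and 31.7 in the KO-labelled libraries and 54.1, 60.7, 52.0 and 39.4 CPM in the WT-labelled ones, a log2 difference of -0.14 (edgeR adjusted p = 0.537). The transcript level thus did not separate the labels, and since the sources used here do not say which exons were removed, a count at the end of the transcript may lie outside them and checks nothing. Kit, one of the sorting genes, was at 159 to 190 CPM in KO-labelled and 160 to 285 CPM in WT-labelled libraries, and Ly6a, which encodes Sca-1, at 21.7 to 55.8 and 14.6 to 50.5 CPM.

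All 10 genes passed the filter on low counts in the LSK sums, with 1548 UMIs (Galnt3) to 25851 UMIs (Galnt1) in all. On the GRCm38 assembly (mm10), Galnt2 lies on chromosome 8, 124231391 to 124345724, and Galnt7 on the same chromosome, 57523828 to 57653032. Galnt10 is on chromosome 11, 57645442 to 57787514, Galnt11 on chromosome 5, 25221904 to 25265918, and Galnt12 on chromosome 4, 47091909 to 47123070. Galnt3 (chromosome 2, 66082766 to 66124994), C1galt1c1 (chromosome X, 38630785 to 38635087) and Gcnt1 (chromosome 19, 17326141 to 17372844) overlap no other gene of GENCODE M21. The other 7 overlap at least 1 gene, 5 of them on the opposite strand, and whether counting used the strand is not given in the sources used here. C1galt1 (chromosome 6, 7844842 to 7875687) overlaps Gm43961 on its own strand and Gm43962 on the opposite one. What these overlaps do to its counts was not tested. CPM here is scaled by TMM factors and is compared for 1 gene across cells, not between genes.

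Cells were placed in states by marker genes that do not include the 10 enzymes. Gates were applied in a fixed order: granule (Elane, Prtn3, Ctsg, Ms4a3), monocyte (Irf8, Csf1r and others), lymphoid (Dntt, Il7r, Rag1), Mpo, stem (at least 3 of Procr, Hlf, Fgd5, Mecom, Mllt3, Slamf1 and Trpc6, with no Flt3 UMI), Flt3, mitotic (Mki67, Top2a and others) and a few rarer ones before them, and the rest stayed ungated. Many cells also met a later gate, so that the order decided their state. These were 3913 of 3944 cells in the granule gate, 3275 of 3399 in the lymphoid gate and 570 of 676 in the megakaryocyte gate. In the stem gate they were 324 of 3304. The gate set with T and NK genes is not named after those cell types here. Of its 759 cells, 680 were exactly at its threshold of 2 genes, and its leading genes outside the gate list were Camp, S100a9, S100a8 and Elane. It held most UMIs of Cd3e (52 of 53), Il2rb (109 of 112), Cd3g (77 of 85), Cd3d (147 of 195), Klrd1 (293 of 436) and Ccl5 (3214 of 4185). Of Nkg7 it held 2791 of 51301. It is called the Nkg7/Ccl5 gate after the genes with most UMIs in it. The leading genes of the monocyte gate included Dntt beside Fn1 and Lgals3, those of the Flt3 gate included Hlf and Procr, and ungated cells shared leading genes with the stem gate (Dlg2, Nbea, Grb10). Median UMIs per cell were 15280 to 21220 in the granule gate and 4434 to 7365 in the stem gate. No doublets were called, and 9 states with sums of at least 20 cells in at least 5 libraries were tested over 11576 genes.

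Across these 9 states the enzymes differed from each other in where they were high. Of 90 contrasts between a gene and a state, 20 passed edgeR's test at an adjusted p of 0.05, and 13 of the 20 passed under all 15 alternatives that gave a value for them. Galnt3 was high in granule and lymphoid cells and low in stem cells. Galnt7 and Gcnt1 were high in stem cells, Galnt2 was high in lymphoid and low in stem cells, C1galt1c1 was high in granule and monocyte cells, and Galnt12 was low in granule cells. C1galt1 passed in none of the 9 states and was high in the rarer megakaryocyte gate. Many genes differ between such states: 65.8% of all tested genes passed in the granule gate, 52% in the stem gate, 44.9% in ungated cells, 39.1% in the Flt3 gate, 23.9% in the monocyte gate, 23% in the mitotic gate, 22.9% in the lymphoid gate, 8.6% in the Mpo gate and 7.98% in the Nkg7/Ccl5 gate. The enzymes passed in 4 of 10 cases in the granule and in the stem gate, in 3 of 10 in the lymphoid gate, in 2 of 10 in ungated, Flt3 and monocyte cells each, and in 1 of 10 in each of the Mpo, mitotic and Nkg7/Ccl5 gates. The median log2 difference of the 10 genes was -0.04 in the granule gate, 0.03 in the stem gate and 0.01 in the lymphoid gate, beside 0.05, -0.02 and 0.05 over all genes. Each share of the enzymes was near or below that of all genes.

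**Figure D1:**
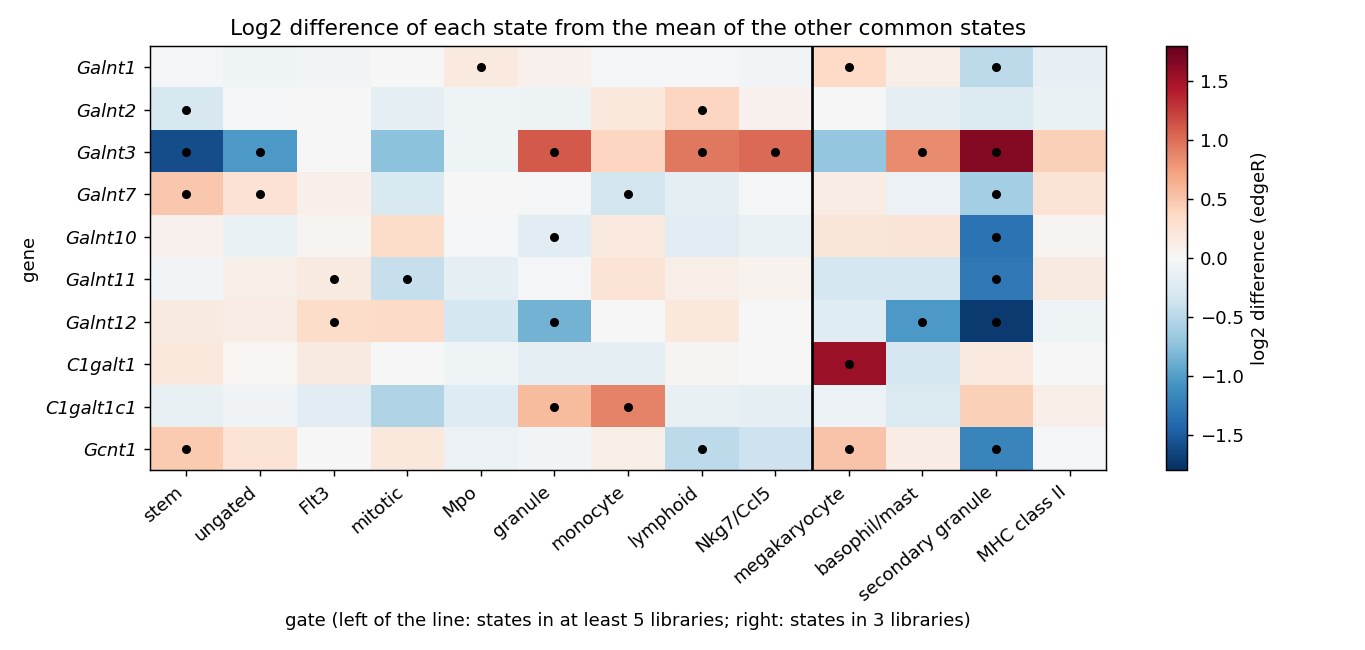
Colours give the edgeR log2 difference of each gene (rows) in each gated state (columns) from the mean of the other common states, with libraries as blocks, and black dots mark an adjusted p under 0.05. The row of Galnt3 runs from -1.59 in the stem gate to 1.66 in the secondary granule gate, and the row of C1galt1 has its single dot, at 1.55, in the megakaryocyte gate.

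Among the initiating enzymes, Galnt3 had the largest log2 differences over the 9 states. Galnt3 is a GalNAc transferase best known for glycosylating the hormone FGF23, which protects it from cleavage. In granule-gated cells its level was 2.71 CPM in the lowest library, 13.4 CPM in the median one and 20.5 CPM in the highest, and in lymphoid-gated cells these values were 2.65, 10.1 and 19.98 CPM. In stem-gated cells they were 0.153, 2.58 and 4.99 CPM. Within each of the 7 libraries the granule and lymphoid levels of Galnt3 were above the stem level, although the lowest libraries, both of list B, overlapped with the highest stem values. The log2 difference from the other states was 1.10 (SE 0.16, adjusted p = 1.2e-08) in the granule gate and 0.95 (SE 0.17, adjusted p = 1.2e-05) in the lymphoid gate by edgeR. In the stem gate it was -1.59 (SE 0.28, adjusted p = 1.5e-06) and in ungated cells -1.04 (SE 0.27, adjusted p = 0.000986). In stem cells the level rested on 35 UMIs over 7 libraries, so its exact size is uncertain.

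Galnt3 also passed in the Nkg7/Ccl5 gate, at 19.0, 13.9 and 3.03 CPM in KO replicates 1 to 3 and 12.1 and 2.33 CPM in WT replicates 3 and 4. That log2 difference of 1.02 (edgeR adjusted p = 0.0124) fell to 0.63 (adjusted p = 0.427) without KO replicate 1. The summed level of 6 neutrophil markers ran from 3.37 to 14240 CPM over the libraries of that gate, and its part in the result was not tested. The secondary granule gate (Ltf, Camp, Ngp, Lcn2, Cd177), which marks later neutrophil-lineage cells, had at least 20 cells in 3 libraries of list A. Galnt3 reached 17.0 CPM there in KO replicate 1, and 28.9 and 37.3 CPM in WT replicates 1 and 3. These were the highest levels of Galnt3 in any state of the WT-labelled libraries named, while in KO replicate 1 the Nkg7/Ccl5 gate was higher. Against the mean of the 9 common states the log2 difference was 1.66 (SE 0.42, edgeR adjusted p = 0.000834), in a comparison where 44.6% of 12317 genes passed. It rested on 31 UMIs. In the basophil and mast gate (33.2% of genes passed) the log2 difference of Galnt3 was 0.86 (SE 0.33, edgeR adjusted p = 0.0358), at 15.3 CPM in KO replicate 1, 1.81 CPM in KO replicate 3 and 1.25 CPM in WT replicate 4, from 48, 6 and 2 UMIs.

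Galnt7 was high in the stem gate and in ungated cells, where Galnt3 was low, and passed in neither the granule nor the lymphoid gate. Galnt7 is one of the enzymes that prefer peptides already carrying GalNAc. Its level in stem-gated cells was 45.0 CPM in the lowest library, 90.3 CPM in the median one and 110 CPM in the highest, and it exceeded the granule level of the same library in all 7. The granule values were 32.4, 61.4 and 74.8 CPM. The log2 difference of Galnt7 in the stem gate was 0.49 (SE 0.06, edgeR adjusted p = 8.2e-10) and that in ungated cells 0.26 (SE 0.07, adjusted p = 0.00106). In the monocyte gate it was -0.33 (adjusted p = 0.0124), which did not pass in list A alone (-0.24, adjusted p = 0.161) or without KO replicate 3 (-0.26, adjusted p = 0.112).

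Galnt2, a widely expressed transferase that acts on unmodified peptides, stood highest in the lymphoid gate. Its lymphoid levels were 39.8 CPM in the lowest library, 111 CPM in the median one and 124 CPM in the highest, and its stem levels 27.0, 72.8 and 77.9 CPM. Each library had more Galnt2 in lymphoid than in stem cells. The edgeR log2 difference was 0.38 (SE 0.06, adjusted p = 1.3e-07) in the lymphoid gate and -0.28 (SE 0.06, adjusted p = 0.000157) in the stem gate.

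**Figure D2:**
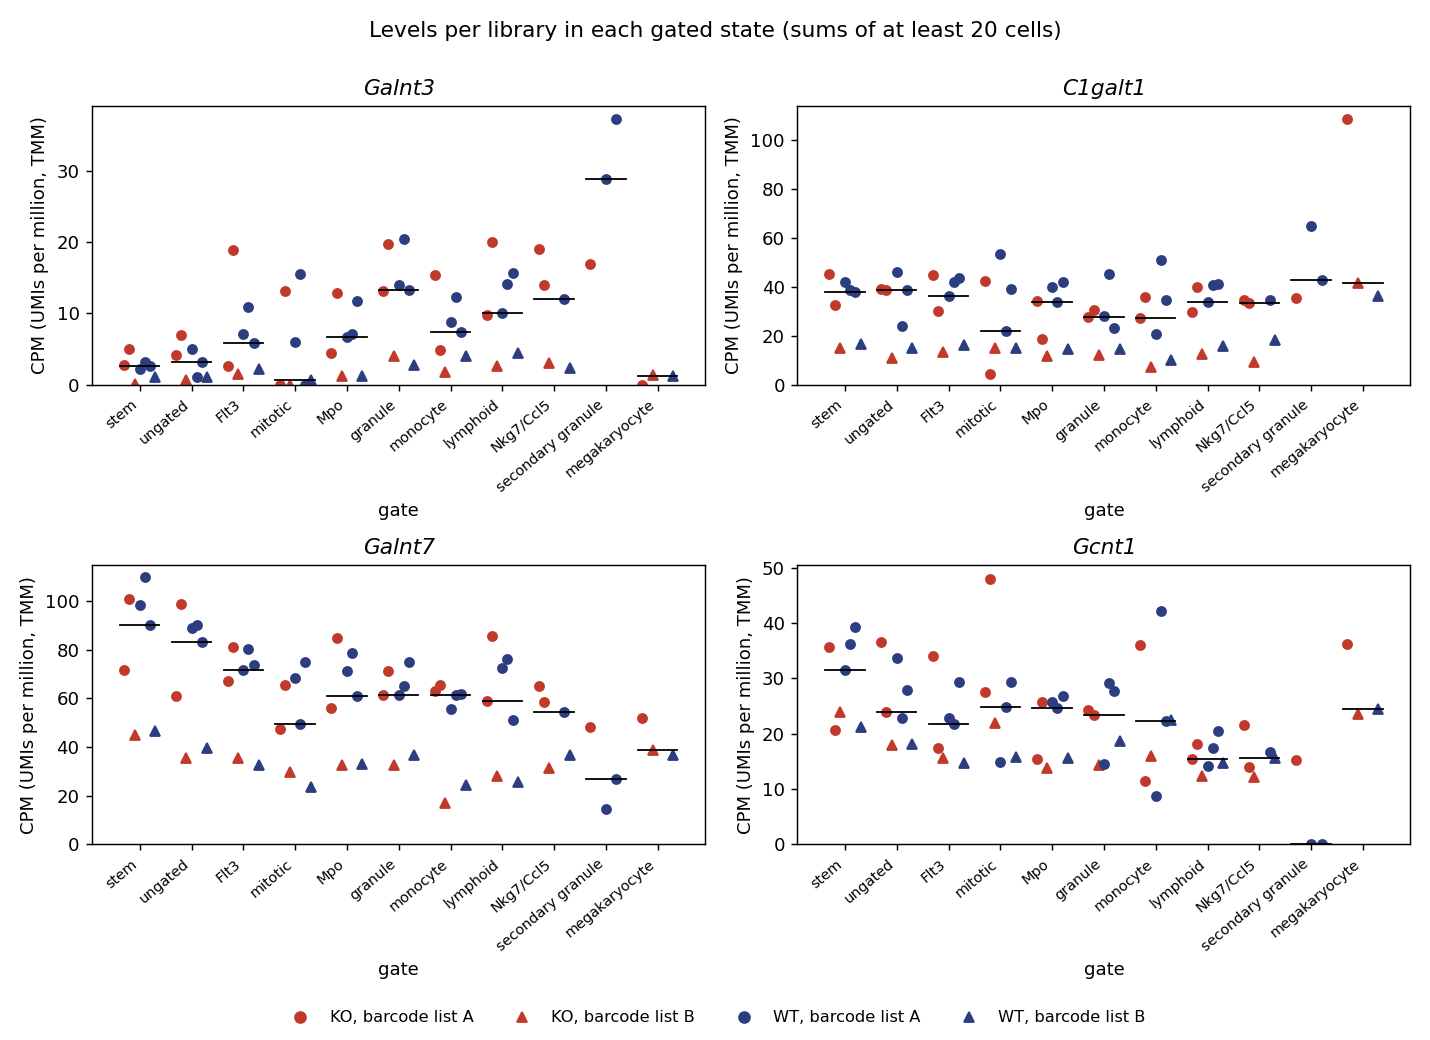
Points are levels in CPM (TMM-scaled, vertical axis) of 4 genes in each library with at least 20 cells in a gated state (horizontal axis), coloured by label and shaped by barcode list, and black lines are medians over libraries. Triangles of list B lie below most circles of list A for Galnt7 and C1galt1, and C1galt1 in the megakaryocyte gate reaches 109 CPM in KO replicate 1, 41.6 CPM in KO replicate 3 and 36.4 CPM in WT replicate 4.

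The other 4 initiating enzymes passed in 1 or 2 of the 9 common states each. Galnt12, a transferase known for its expression in colon, was at 2.57 to 8.06 CPM (median 5.78) in granule cells and at 2.99 to 16.3 CPM (median 13.7) in Flt3-gated cells. Its log2 difference was -0.85 in the granule gate (SE 0.13, edgeR adjusted p = 6.4e-08), where it was below the other states in all 7 libraries. In the basophil and mast gate, held by 3 libraries, Galnt12 was also lower. The log2 difference there was -1.03 (SE 0.29, edgeR adjusted p = 0.00344), from 26 UMIs, where 33.2% of all genes passed. The value of 0.34 for Galnt12 in the Flt3 gate (edgeR adjusted p = 0.0199) lost its call under 4 of 15 alternatives. Among them were those without KO replicate 2, WT replicate 2 or WT replicate 3 (adjusted p of 0.0645, 0.0733 and 0.0723). Galnt1, a widely expressed transferase, ranged only from 118 to 164 CPM between the median libraries of the 8 states held by all 7 libraries. Galnt1 was higher in the Mpo gate by 0.18 (edgeR adjusted p = 0.0168), and this call was lost when any 1 library other than KO replicate 3 was left out, with adjusted p up to 0.109. With raised gates it was 0.06 (adjusted p = 0.416). Galnt10, which like Galnt7 prefers GalNAc-bearing peptides, was lower in the granule gate by a log2 difference of -0.20 (edgeR adjusted p = 0.0314). That call was lost under 3 of 15 alternatives, among them without WT replicate 1 (adjusted p = 0.0733). Galnt11 had log2 differences of 0.16 in the Flt3 gate (edgeR adjusted p = 0.0451) and -0.41 in the mitotic gate (adjusted p = 0.0443). Of the Galnt11 calls, that in the Flt3 gate was lost without any 1 library except KO replicate 3, with adjusted p up to 0.122, and that in the mitotic gate likewise, with adjusted p up to 0.118.

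In the secondary granule gate, 5 of the 7 transferases passed as lower than in the common states, as did 22.9% of all genes, while Galnt3 was higher. The log2 differences there were -0.47 for Galnt1, -0.61 for Galnt7, -1.32 for Galnt10, -1.29 for Galnt11 and -1.73 for Galnt12, with edgeR adjusted p of 0.00158, 0.00549, 0.00155, 7.7e-05 and 0.00544. Galnt10 was at 5.09 CPM in KO replicate 1 but at 28.85 and 26.66 CPM in WT replicates 1 and 3, from 6, 4 and 5 UMIs. Those WT-labelled libraries had 28.74 and 27.995 CPM of Galnt10 over all LSK cells, so its lower value rests on KO replicate 1. The Galnt11 value rests on 19 UMIs. Galnt12 was at 4.24 CPM in KO replicate 1 and had no UMI in WT replicates 1 and 3, so the fitted size for this gene depends on the prior count. Galnt2 differed by -0.25 (adjusted p = 0.210). Cells of this gate held 0.0677% to 2.41% of a library, and 6 neutrophil markers summed to 144000 to 338700 CPM in it.

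The core 1 enzyme C1galt1 passed in none of the 9 common states, where its median library was at 21.7 to 38.7 CPM, and was higher in megakaryocyte-gated cells, which had at least 3 of Pf4, Gp9, Gp1bb, Gp6, Ppbp, F2rl2 and Itga2b. In KO replicate 1 its level was 109 CPM in 26 megakaryocyte-gated cells and 45.0 CPM in stem-gated cells. For KO replicate 3 the level was 41.6 CPM in 391 such cells and 15.0 CPM in stem-gated cells. WT replicate 4 had 36.4 CPM in 240 such cells and 16.5 CPM in stem-gated cells. In each of these 3 libraries the megakaryocyte level was the highest of any state. The log2 difference from the common states was 1.55 (SE 0.13, edgeR adjusted p = 5.0e-16), in a comparison where 21.9% of 12317 genes passed. It was 1.383 to 1.701 when any 1 of the 3 libraries was left out.

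The size of the C1galt1 difference changed with the cells and libraries taken. In all, 532 of the 676 megakaryocyte-gated cells were exactly at the threshold of 3 genes, and with raised gates the log2 difference was 2.68 (edgeR adjusted p = 9.7e-25). That value rests on KO replicate 3 (100 cells) and WT replicate 4 (38 cells), both of list B, since KO replicate 1 then had 7 such cells. Without the 5% of cells with most UMIs in each library it was 0.78 (adjusted p = 0.000432), and with cells of at least 5000 UMIs only it was 1.59. The other 4 libraries had 19 such cells together, with 29 UMIs of C1galt1 in 335365, or 86.5 CPM without TMM scaling (exact Poisson 95% interval 57.9 to 124, counting error only), beside 39.3 CPM (37.8 to 40.9) in their other cells. Of those 29 UMIs, 17 came from 2 cells of WT replicate 2. Without that library the value was 44.5 CPM (23.0 to 77.8) in 17 cells beside 37.7 CPM (36.0 to 39.5) in the others, intervals that overlap. Erythroid-gated cells (Gata1, Klf1, Epor, Car1, Ermap) had enough cells in 2 libraries, where C1galt1 was at 22.7 CPM (KO replicate 3) and 30.4 CPM (WT replicate 4), between the stem and megakaryocyte levels of the same libraries, with no test. In the megakaryocyte gate 6 neutrophil markers summed to 5.06 to 72.6 CPM and 6 macrophage and stromal markers to 0.778 to 1.73 CPM.

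Gcnt1, Galnt1 and no other of the 10 genes also passed in the megakaryocyte gate. Gcnt1 was at 36.3, 23.5 and 24.4 CPM in KO replicate 1, KO replicate 3 and WT replicate 4, a log2 difference of 0.52 (SE 0.16, edgeR adjusted p = 0.0120). Galnt1 differed by 0.35 (SE 0.08, adjusted p = 0.000831), at 183, 86.2 and 79.1 CPM. The chaperone C1galt1c1 had 22.5, 18.7 and 19.9 CPM there, a log2 difference of -0.11 (SE 0.19, adjusted p = 0.730), so the enzyme and its chaperone gave unlike values in the same cells. Whether their differences differ from each other was not tested. In the MHC class II gate none of the 10 genes passed (3.71% of all genes passed), and none had an unadjusted p under 0.05.

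C1galt1c1 had its highest levels in monocyte- and granule-gated cells. Its monocyte levels were 19.6 CPM in the lowest library, 32.7 CPM in the median one and 41.1 CPM in the highest, and its granule levels 11.8, 25.4 and 28.4 CPM. In Flt3-gated cells these values were 8.84, 11.5 and 22.9 CPM, and each library was higher in monocyte than in Flt3 cells except KO replicate 3, at 19.6 and 20.8 CPM. The edgeR log2 difference was 0.90 (SE 0.19, adjusted p = 0.000124) in the monocyte gate and 0.56 (SE 0.11, adjusted p = 6.1e-06) in the granule gate. Between the median libraries of the other 6 states held by all libraries the level ran from 11.5 to 14.3 CPM.

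Gcnt1, the core 2 branching enzyme, was highest in stem cells and lowest in lymphoid cells by its median library over the 9 common states. Its stem levels were 20.6 CPM in the lowest library, 31.5 CPM in the median one and 39.3 CPM in the highest, and its lymphoid levels 12.4, 15.5 and 20.4 CPM. The ranges did not overlap, and within every library the stem level was above the lymphoid one. The edgeR log2 difference was 0.47 (SE 0.10, adjusted p = 6.8e-05) in the stem gate and -0.47 (SE 0.11, adjusted p = 0.000466) in the lymphoid gate. In the secondary granule gate Gcnt1 had no UMI in WT replicates 1 and 3 and 15.3 CPM in KO replicate 1. It passed as lower there, as did 22.9% of all genes. The log2 difference was -1.185 (SE 0.36, edgeR adjusted p = 0.00476), from 18 UMIs.

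Galnt7 and Gcnt1 thus were both highest in stem cells by their median libraries over the common states. The bases before their RefSeq starts are shown because these 2 genes both passed as higher there. Their patterns were otherwise not close, with a Pearson's r of 0.36 over 61 sums of a library and a state. In the rarer megakaryocyte gate the log2 difference of Gcnt1 was 0.52, and that of Galnt7 was 0.14 and did not pass. RefSeq windows on GRCm38.p6 matched 6 of the 10 genes, 9 windows in all, of which 5 touch no GENCODE exon in the 250 bases before the start. Gcnt1 has 3 listed starts, 2 of them free of exons, and counts at the end of transcripts do not say which start was used. The window of Galnt7 is chr8:57653056-57653305 and those of Gcnt1 are chr19:17356668-17356917 and chr19:17372845-17373094, all on the minus strand and written 5′ to 3′. Capitals mark a GC box (GGGCGG), an ETS core (CCGGAA) or a CCAAT box (CCAAT) on either strand. None of these 3 windows holds the other motifs searched on both strands, a GATA motif (AGATAA), a RUNX motif (TGTGGT) and an E-box (CACGTG).
Galnt7: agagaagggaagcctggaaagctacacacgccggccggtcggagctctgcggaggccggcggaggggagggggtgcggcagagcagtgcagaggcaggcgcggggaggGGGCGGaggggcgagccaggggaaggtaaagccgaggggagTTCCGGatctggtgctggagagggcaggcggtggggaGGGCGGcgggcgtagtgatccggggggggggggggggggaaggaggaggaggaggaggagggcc
Gcnt1, inner start: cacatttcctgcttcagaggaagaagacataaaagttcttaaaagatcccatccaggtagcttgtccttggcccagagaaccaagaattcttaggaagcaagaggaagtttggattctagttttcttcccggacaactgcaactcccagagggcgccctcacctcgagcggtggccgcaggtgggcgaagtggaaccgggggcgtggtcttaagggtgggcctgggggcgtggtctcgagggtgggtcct
Gcnt1, outer start: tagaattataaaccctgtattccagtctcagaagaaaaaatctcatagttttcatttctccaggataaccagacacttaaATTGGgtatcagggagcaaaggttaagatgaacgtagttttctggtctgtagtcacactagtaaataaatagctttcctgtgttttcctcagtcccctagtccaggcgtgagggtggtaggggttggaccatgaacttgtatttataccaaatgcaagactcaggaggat

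The windows of Galnt7 and Gcnt1 share little of what was counted. The Galnt7 window was 73.6% G and C with 19 CpG pairs, 2 GC boxes and 1 ETS core. Those of Gcnt1 were 55.6% and 40.4% G and C with 10 and 2 CpG pairs, and the outer one held 1 CCAAT box. Over 32841 windows of the same length the medians were 52.4% and 6 CpG pairs, and 32.7% held a GC box, 12% an ETS core, 33.9% a CCAAT box, 9.99% a GATA motif, 14% a RUNX motif and 6.02% an E-box. The C1galt1 window lies in an annotated exon and is not printed. It was 82.8% G and C with 44 CpG pairs and 5 GC boxes, and held none of the other motifs. That of Galnt3, 201 of whose bases lie in an exon, had 76.8%, 34 CpG pairs and 3 GC boxes. These matches describe letters only.

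Within the stem gate, cells with at least 2 UMIs of 5 mitotic genes were compared with cells without any, to ask whether the enzymes differed with cycling inside 1 state. Of the 10 genes, 8 passed the count filter, and 37.3% of 8416 genes passed the test. The median cell held 7024 to 11160 UMIs with mitotic UMIs and 4026 to 6804 without, by library. Galnt11 was lower in the cells with mitotic UMIs in 7 of 7 libraries, at 12.4 to 44.0 CPM with and 19.6 to 52.1 CPM without them. Its log2 difference was -0.47 (SE 0.17, edgeR adjusted p = 0.0243), and the same gene had the value of -0.41 in the mitotic gate given above. Galnt1 differed by 0.22 (SE 0.09, adjusted p = 0.0376) and was higher in 6 of 7 libraries. Both calls depended on which libraries were kept. Galnt11 was at an adjusted p of 0.1496 without KO replicate 1 and 0.0819 without WT replicate 4, and Galnt1 at 0.0648 to 0.144 without KO replicate 2, KO replicate 3, WT replicate 2 or WT replicate 4.

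Other genes of the pathway were counted in the same states, where 52% (stem gate), 65.8% (granule gate) and 22.9% (lymphoid gate) of all genes passed. Of 12 other GalNAc transferases, 2 passed the filter in the state sums, Galnt4 and Galnt6, and both were higher in the stem gate, by log2 differences of 0.50 and 0.51 (edgeR adjusted p of 0.0204 and 2.4e-07). Galnt6 was lower in the lymphoid gate (-0.55). Among 10 tested other core and extension enzymes, 3 rose and 2 fell in the stem gate, 3 rose and 5 fell in the granule gate, and 2 rose and 3 fell in the lymphoid gate. The median log2 difference of these 10 was 0.06, -0.24 and -0.01 in the 3 gates in that order, beside -0.02, 0.05 and 0.05 over all genes. St3gal1, which caps core 1 with sialic acid, had log2 differences of 1.19 in the stem gate, -0.79 in the granule gate and -0.87 in the lymphoid gate. St6galnac3, another sialyltransferase, was at 0.69 in the stem gate, B3gnt2, which extends chains, at 0.53 in the granule gate, and 1 of the 2 gene IDs named St6galnac2 at 1.19 in the lymphoid gate.

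Of 10 genes that supply sugar donors, 1 rose and 2 fell in the stem gate and 4 rose and 1 fell in the granule gate. Galk1, the galactokinase, had a log2 difference of 0.68 in the granule gate and -0.56 in the stem gate. Uap1, which makes UDP-GlcNAc, was at 0.31 in the granule and -0.23 in the lymphoid gate, and Cmas, which activates sialic acid, at 0.37 in the stem gate. All 5 of these values passed (edgeR adjusted p at most 0.0211). Of 11 tested glycoproteins that carry mucin-type chains, 3 rose and 5 fell in the stem gate, 6 rose and 3 fell in the granule gate, and 4 rose and 3 fell in the lymphoid gate. Emcn had a log2 difference of -1.20 in the granule gate, Cd34 of -0.76 in the stem gate, and Muc13 and Cd44 of -1.11 and 0.43 in the lymphoid gate.

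For each enzyme the genes with the most similar pattern were sought, at most 2 of them named, by Pearson's r of log2 CPM over 61 sums of a library and a state after centring within libraries, among 7160 genes of at least 20 CPM or 7161 for the 3 enzymes below that level. The sums share libraries and depth, so r is a description only. Galnt3 was most like Sntb1 (r = 0.85) and Irf8 (0.76), the latter a monocyte gate gene. C1galt1c1 was nearest to Cst3 and Fcer1g (both 0.80), Galnt7 to Ifitm1 and Klf9 (both 0.77), and C1galt1 to Mitd1 (0.78) and Brox (0.74). Galnt2 paired with Hdac7 and Jakmip1 (both 0.74), Galnt11 with Ctsl (0.73) and Macf1 (0.72), Galnt12 with Prkce (0.67) and Pias1 (0.63), and Gcnt1 with Socs4 (0.62). Galnt10 (Zdhhc6, 0.64, and Ccdc174, 0.59) and Galnt1 (Taf1, 0.58, and Ppp4r2, 0.56) had the lowest values.

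None of the 10 genes passed the test between the labels over all LSK cells. In that comparison 162 of 14608 genes (1.11%) passed edgeR's test with the barcode list as covariate. Of the enzymes 3 had an unadjusted p under 0.05, and the share of all genes with such a p is not given here. DESeq2 called 856 genes in all, among them 1 enzyme, Galnt12. The KO- and WT-labelled libraries overlapped for all 10, while 5.74% of all genes did not overlap. By an exact two-sided permutation test of each gene over the 7 libraries the lowest p was 0.114, for C1galt1c1, and the smallest that 3 against 4 libraries allow is 0.0286.

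The barcode lists separated these genes more than the labels did. Galnt2, for example, was at 71.6 and 87.1 CPM in KO replicates 1 and 2 and 30.3 CPM in KO replicate 3, and at 94.4, 89.6, 91.5 and 32.8 CPM in WT replicates 1 to 4. Of the 10 genes 9 were lower in list B, by log2 differences from -0.59 (Gcnt1) to -2.41 (Galnt3), with edgeR adjusted p at most 0.00411. C1galt1c1 was the exception at 0.44 (SE 0.20, adjusted p = 0.0805). Over all genes 62.2% differed between the lists, 31.2% being lower in list B. The lists also differ in the ribosomal share given above, and what sets them apart is not given in the sources used here.

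**Figure D3:**
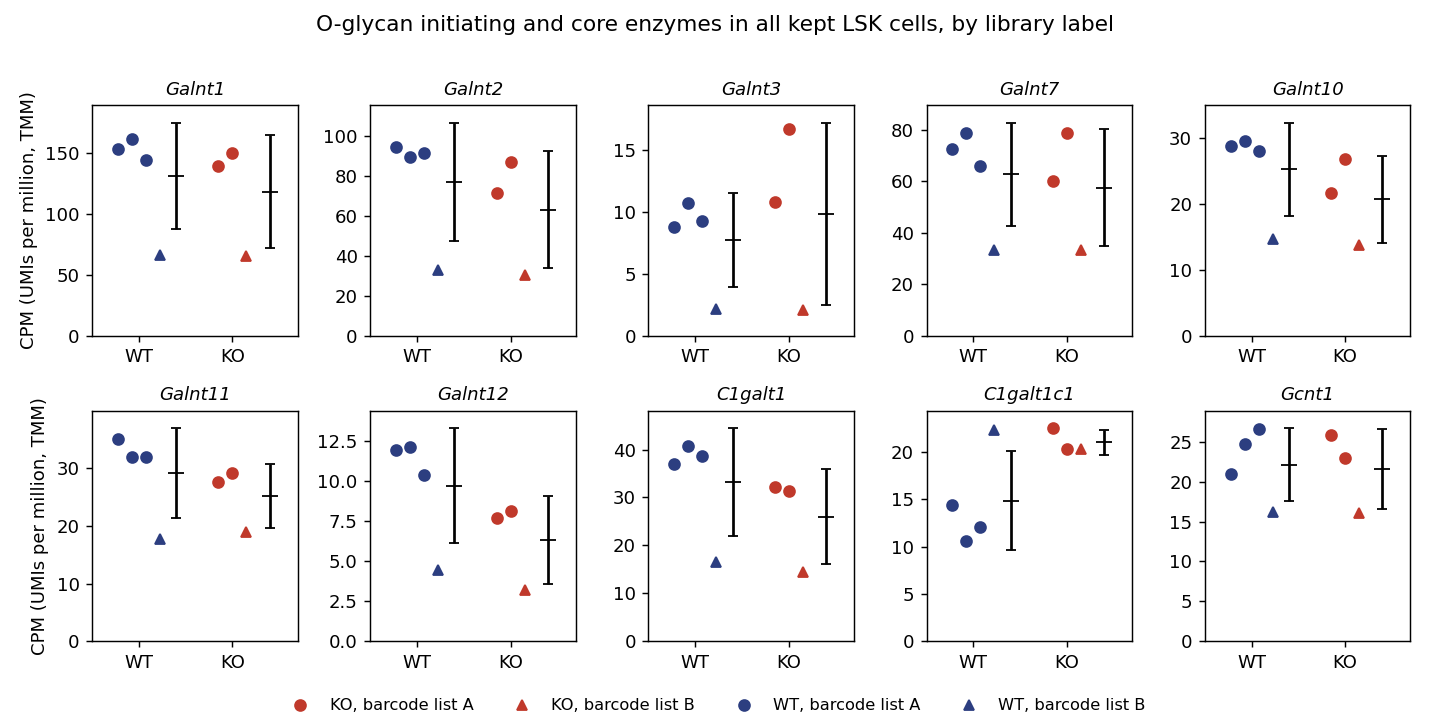
Each point is the level of a gene in all kept cells of 1 library in CPM (vertical axis, from 0), by label (horizontal axis), with circles for barcode list A and triangles for list B; black marks beside the points are the mean and SD over the libraries of a label. The triangles lie lowest for every gene but C1galt1c1, and points of the labels overlap in each panel.

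The 3 enzymes nearest to a label difference were Galnt12, C1galt1c1 and C1galt1. Galnt12 was at 7.71, 8.13 and 3.18 CPM in the KO-labelled libraries and at 11.9, 12.1, 10.4 and 4.45 CPM in the WT-labelled ones. Within each barcode list the KO-labelled values lay below the WT-labelled ones, and the log2 difference was -0.52 (SE 0.15, edgeR adjusted p = 0.123). DESeq2 gave -0.52 with an adjusted p of 0.0416. C1galt1 was at 32.2, 31.3 and 14.5 CPM in KO-labelled libraries against 37.0, 40.8, 38.6 and 16.6 CPM in WT-labelled ones, a log2 difference of -0.26 (SE 0.11, adjusted p = 0.231), again lower within each list. C1galt1c1 was at 22.5, 20.2 and 20.3 CPM against 14.4, 10.6, 12.04 and 22.3 CPM, a log2 difference of 0.51 (SE 0.19, adjusted p = 0.193). The lists disagreed for C1galt1c1. Its difference was 0.78 in list A (edgeR adjusted p = 0.0534) and -0.14 between the 2 libraries of list B, and it passed without KO replicate 3 (0.79, adjusted p = 0.0484) or without WT replicate 4 (0.78, adjusted p = 0.04996). For the other 7 genes the log2 difference lay between -0.21 (Galnt10) and 0.34 (Galnt3), with adjusted p of at least 0.369.

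The mix of states differed between the labels. Granule-gated cells made up 20% to 38.8% of a KO-labelled library and 4% to 9.89% of a WT-labelled one, while the lymphoid gate held 4.36% to 10.4% and 19% to 19.4%, and the Flt3 gate 10.1% to 13.4% and 20.4% to 31.1%. Galnt12 was low and C1galt1c1 high in the granule gate, as given above. In sums without the granule, monocyte, secondary granule, MHC class II and Nkg7/Ccl5 gates the label difference was -0.23 for Galnt12 (edgeR adjusted p = 0.966), 0.04 for C1galt1c1 and -0.13 for C1galt1 (both 0.9996). In another alternative, cells under 3000 UMIs were left out and each remaining cell was thinned to 3000 UMIs, so that these counted alike. The label difference was then -0.40 for Galnt12, 0.07 for C1galt1c1 and -0.24 for C1galt1. In a sum over all cells, fewer cells of a type and less RNA per cell cannot be told apart. Among erythroid markers, Hba-a1 and Hbb-bs had log2 differences of -2.94 and -2.25 between the labels (edgeR adjusted p of 0.0231 and 0.0138), and Hbb-bt, with more UMIs, had 0.51 (adjusted p = 0.257). Hbb-bs was at 78.2 CPM in WT replicate 4, 13.9 CPM in KO replicate 3 and 0.155 to 0.900 CPM in list A, where it did not pass (adjusted p = 0.235). The part of erythroid RNA in the label values was not tested.

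Within the 8 states held by all 7 libraries, 71 label contrasts of the 10 genes could be tested. None passed, 2 had an unadjusted p under 0.05, and the labels overlapped in all 71. The share of all genes with such a p in these states is not given here, so that count is not read as a result. Over all genes and the same 8 states, 0.0783% of contrasts passed and 1.81% had labels that did not overlap. C1galt1c1 in the granule gate came nearest, at 26.0, 24.6 and 22.5 CPM in KO-labelled and 17.7, 11.4, 11.8 and 24.3 CPM in WT-labelled libraries (log2 difference 0.50, SE 0.21, edgeR adjusted p = 0.845). C1galt1 in the Mpo gate was at 35.2, 20.3 and 11.6 CPM against 39.7, 34.8, 42.6 and 14.6 CPM (-0.43, SE 0.19, adjusted p = 0.884). The 8 states are sums of the same 7 libraries, so their directions are not separate observations. How many of all genes kept 1 direction in all states was not counted. The C1galt1 difference was below 0 in 8 of 8 states, from -0.43 to -0.07. That of Galnt12 was below 0 in 5 of the 6 states where it was tested, from -0.35 to 0.01. For C1galt1c1 it was below 0 in 4 of 7 states, from -0.41 in ungated cells to 0.50 in the granule gate.

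No enzyme passed the test of whether its label difference differed between states. In the interaction test over 8 states, none of the 10 passed and none had an unadjusted p under 0.05, while 1 of 11267 genes passed (0.00888%). The smallest p among the enzymes was 0.130, for C1galt1c1. With terms for the barcode list in each state, 17 genes passed (0.151%) and again none of the 10, nor did any have an unadjusted p under 0.05. DESeq2 was not run for these within-state tests.

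**Figure D4:**
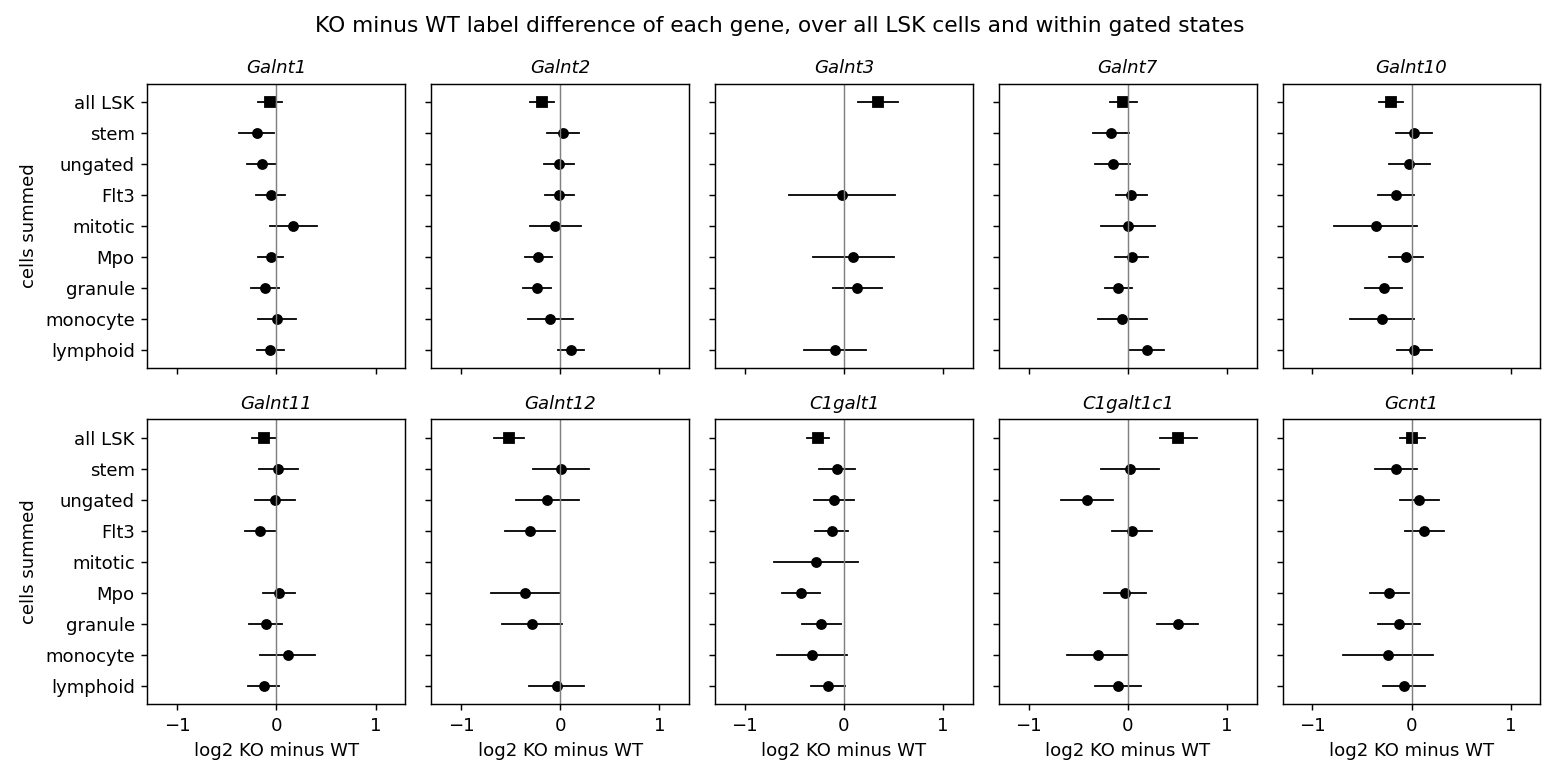
Symbols give the log2 difference KO minus WT label (horizontal axis) of each gene over all LSK cells (square) and within gated states (circles, vertical axis), with lines of 1 SE; states in which a gene did not pass the count filter have no symbol. C1galt1 lies left of 0 in all 8 states, which share the same libraries. The square of C1galt1c1, at 0.51, lies near its granule gate circle at 0.50.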

How the data were processed

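Single-cell RNA was measured in 7 libraries of sorted LSK cells, 3 labelled KO and 4 labelled WT. The authors deposited whole-number UMI counts per gene and cell, and the submitters' processing notes name mm10, Cell Ranger 7.0.0 and Seurat 4.4.0; filters before deposit are not given in the sources used here.

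Cells with at least 1000 UMIs, 500 genes and at most 10% mitochondrial UMIs were kept, 1172 to 8862 per library. No doublet caller was run; an alternative left out the 5% of cells with most UMIs. Each cell took the first marker gate it met, and counts were summed per library and gate where at least 20 cells were present. Sums were tested with edgeR 4.0.16 (quasi-likelihood, robust, TMM, genes filtered by group, two-sided) in R 4.3.3, with Benjamini-Hochberg adjustment over all tested genes and a threshold of 0.05. Label comparisons had the barcode list as covariate, and state comparisons had the library as block. Libraries held 14970791 to 89747946 UMIs in all barcodes, which limits precision for low genes such as Galnt3. The fitting was tested on simulated data with large planted changes in well-counted genes and no barcode list effect. Small changes and genes of few UMIs were not covered by it. Exact permutation tests and likeness were computed in R 4.3.3, Poisson intervals with scipy 1.17.1 and thinning with numpy 2.4.6.

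The members, gates and gene lists were chosen with earlier results of these data known. Genes named are the 10 enzymes, B4galt1, Kit and Ly6a, pathway genes called between labels, at most the 2 of smallest p per list in the 3 states with most enzymes called, and, per enzyme with a mean of at least 5 CPM over the sums, the 2 most similar genes of at least 20 CPM. Haemoglobin genes were added after their values were seen. Some genes that this rule names are not reported here. Alternatives were DESeq2 1.42.0, other covariates, gene and cell filters, thinning, raised gates and leaving out libraries. Added after seeing the data were list B alone, no Nkg7/Ccl5 gate, states in at least 3 libraries (which gives the megakaryocyte gate results), its C1galt1 alternatives and list-by-state terms.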

Additional observations from a re-analysis of the deposited data

Results flagged for a closer look

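In the 4 WT-labelled libraries, WT replicate 4 lay far below the others for 3 of the 10 genes. Galnt2 was at 32.8 CPM in it, with a gap to the nearest library of 0.921 of the whole range, Galnt10 at 14.6 CPM (0.900) and C1galt1 at 16.6 CPM (0.840), all above the 95% critical value of Dixon's test for 4 samples. Chance flags about 5% of groups, and 10 groups were tested. WT replicate 4 is the WT-labelled library of barcode list B, and KO replicate 3, also of list B, had 30.3 CPM of Galnt2, 13.7 CPM of Galnt10 and 14.5 CPM of C1galt1.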

How the results depend on the processing

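Genes of few UMIs (Galnt3, Galnt12) and states held by 3 libraries limit precision. Of 170 label values of the 10 enzymes under an alternative, 152 kept direction and side of the threshold. edgeR called 0 enzymes between labels, DESeq2 called 1, and leaving out 1 library gave 0 to 1. Called genes numbered 162, against 0 without the covariate, 362 in list A, 856 by DESeq2, 547 without the gene filter, 1 with a replicate block, 103 with thinned cells, 42 without the maturing gates and 16 to 349 without 1 library. The replicate block called 0 enzymes, also within states. Deviations of same-numbered libraries correlated at 0.53 and 0.72 for numbers 1 and 2 and at -0.36 for number 3, which crosses the barcode lists (KO replicate 3 and WT replicate 4 correlated at 0.89). Not every pair was positive and no label gives a pairing, so the numbers were not used as pairs. Directions turned for 5 enzymes, in values that were not called, and the cause was not tested. Gcnt1 had -0.033 without the covariate, -0.0045 in list A, -0.17 with the block, -0.013 in list B and -0.060 to 0.062 without 1 library (negative without KO replicate 1 or WT replicate 1). Galnt3 had -0.35 with the block, -0.11 without the maturing gates and -0.088 in list B. Galnt7 had 0.025 without the maturing gates, 0.00031 in list B and -0.15 to 0.060 without 1 library (positive without KO replicate 1 or WT replicate 2). In list B Galnt11 had 0.094 and C1galt1c1 -0.14. State calls numbered 20, against 31 with raised gates, where 7 states had enough cells, 16 without the gene filter, 23 by DESeq2 and 17 to 21 without 1 library. Mitotic calls numbered 2, and 0 to 2 without 1 library. Within states edgeR called 0 enzymes under all 10 alternatives.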
